A study of Mus musculus with 32 samples.

Results

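Hepcidin and the genes of hepatic iron handling were described across the livers of *Cyp2c70* knockout (KO) and wild-type (WT) mice fed chow or the bile acid uptake inhibitor SC-435. The group comprised 10 genes chosen by name, *Hamp*, *Hamp2*, *Tfr2*, *Hfe*, *Bmp6*, *Id1*, *Tfrc*, *Fth1*, *Ftl1* and *Slc40a1*, of 54532 genes in the count table. All 10 passed the filter on low counts in every comparison. The data were 32 poly-A-selected RNA-seq libraries of whole liver, 1 per mouse, from C57BL/6 mice killed at 12 weeks of age. They fell into 8 groups of 4 mice by sex, genotype (wild type or cyp2c70 -/-) and diet. The KO groups carried a germline deletion that included exon 2 of *Cyp2c70*, made with CRISPR-Cas9 and derived from a single founder. *Cyp2c70* encodes the enzyme that makes muricholic acids, the hydrophilic bile acids of mice. The treated WT and KO groups received 0.006% SC-435 in the chow, about 11 mg/kg/day, and the other 4 groups received chow without the drug. SC-435 inhibits the ileal transporter through which bile acids return from the gut to the liver.

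Hepcidin is the peptide hormone by which the liver limits iron entry into the blood. It is made by hepatocytes from *Hamp*, and it binds ferroportin (*Slc40a1*), the only known cellular iron exporter, and leads to its degradation. Mice carry a neighbouring copy, *Hamp2*, whose peptide is not known to act on iron. Transcription of *Hamp* follows iron through a BMP-SMAD pathway, in which BMP6 from sinusoidal endothelial cells is the ligand, HFE and transferrin receptor 2 (*Tfr2*) sense iron-loaded transferrin on hepatocytes, and *Id1* is a target gene used as a readout. It also follows inflammation through IL-6 and STAT3. Ferritin, built from heavy (*Fth1*) and light (*Ftl1*) chains, stores iron, and transferrin receptor 1 (*Tfrc*) takes it up. In whole liver, fewer cells of a type and less RNA per cell cannot be told apart.

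Library totals ranged from 36476021 to 44771350 counts, with a median of 42232543. *Cyp2c70* stood at 275 to 851 CPM (read counts scaled to library size) in the 16 WT mice and at 109.8 to 187 CPM in the 16 KO mice. Counts were per gene, so which part of *Cyp2c70* the reads of KO mice came from was not examined. *Xist* and the Y-linked *Ddx3y* separated the sexes as labelled in all 32 libraries. The 6 hepatocyte markers checked were detected in every group. The library of male WT chow replicate 1 stood apart: its normalisation factor was 0.622, against 0.911 to 1.26 in the other 31, its 8 erythroid markers summed to 677 CPM against 129.9 to 156 CPM in the other 3 mice of its group, and its hepatocyte markers summed to 176711 CPM against 72768 to 80893 CPM. Some values that rest on this library are also given without it. Among them are values whose call changed or that moved by over 1.5 times, but not every such value is given. Other values of the male WT chow group include this library. Male WT SC-435 replicate 4 also differed from its group, with a chi-square per gene of 276 to 320.4 against the other 3 mice, who differed from each other by 25.02 to 32.9, and with 66047 CPM of 15 summed IL-6-STAT3 and acute-phase genes against 11711 to 14429 CPM. CPM values were scaled over all 32 libraries, and differences were tested with edgeR (quasi-likelihood), adjusted by Benjamini-Hochberg across the genes of each fit, and called at an adjusted p under 0.05.

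The regulatory sequences are shown first, to let the 2 hepcidin promoters be compared and to show which transcripts carry iron-responsive elements. *Hamp* (ENSMUSG00000050440; GRCm38 chr7:30942368-30944032, minus strand) and *Hamp2* (ENSMUSG00000056978; chr7:30922372-30924681, minus strand) lie side by side. The 250 bases before the RefSeq start of each are printed 5′ to 3′ on the gene's strand (RefSeq, GRCm38.p6), with capitals marking 2 motifs, the BMP-response core GGCGCC and the STAT palindrome TTCNNNGAA, where N is any base.
Hamp, chr7:30944030-30944279, minus strand: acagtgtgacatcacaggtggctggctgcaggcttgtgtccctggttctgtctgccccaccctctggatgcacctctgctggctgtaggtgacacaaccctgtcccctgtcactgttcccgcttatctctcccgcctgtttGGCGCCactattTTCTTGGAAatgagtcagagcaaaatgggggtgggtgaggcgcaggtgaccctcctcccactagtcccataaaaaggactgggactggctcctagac
Hamp2, chr7:30924182-30924431, minus strand: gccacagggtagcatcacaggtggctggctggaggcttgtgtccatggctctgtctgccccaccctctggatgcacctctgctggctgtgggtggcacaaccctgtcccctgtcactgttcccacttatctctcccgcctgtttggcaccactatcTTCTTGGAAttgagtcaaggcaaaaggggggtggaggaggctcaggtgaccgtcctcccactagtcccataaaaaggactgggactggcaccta
Both strands were searched, and the 2 motifs do not overlap each other. In *Hamp*, GGCGCC lay 109 to 104 bases and TTCTTGGAA 97 to 89 bases before the start, and in *Hamp2* TTCTTGGAA lay 94 to 86 bases before it. The aligned windows were identical in 227 of 253 columns (89.7%), with 20 substitutions and 6 gap columns. The stretch of *Hamp2* aligned to GGCGCC read GGCACC, the substitution G4A with the *Hamp* base first and positions counted from 1 at the first base of the motif. Of 32851 RefSeq promoter windows of this length, 9.59% held GGCGCC, 7.02% held TTCNNNGAA and 0.368% held both. Of the members, 8 had windows in the table, 12 windows in all, and apart from the hepcidin genes only 1 window of *Tfrc* held either motif (GGCGCC). A match is a description of the letters and not a test of binding.

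Iron regulatory proteins bind stem-loops called iron-responsive elements in several of these transcripts. In low iron they hold back translation where the element lies in the 5′ UTR and protect the mRNA from decay where it lies in the 3′ UTR, and mRNA levels alone do not show the first of these. The spliced transcripts were searched for an unpaired C, 5 bases, the loop CAGTGN and 5 bases pairing with the first 5. The sites found in the members, in which all 5 pairs could form, are printed with 29 bases each, 5′ to 3′ on the transcript strand (GRCm38), with the unpaired C and the loop in capitals.
Fth1, 5′ UTR, chr19:9982732-9982760, plus strand: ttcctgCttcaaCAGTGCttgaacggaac
Ftl1, 5′ UTR, chr7:45459779-45459807, minus strand: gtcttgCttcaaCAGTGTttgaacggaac
Slc40a1, 5′ UTR, chr1:45925465-45925493, minus strand: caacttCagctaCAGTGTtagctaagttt
Tfrc site 1, 3′ UTR, chr16:32631219-32631247, plus strand: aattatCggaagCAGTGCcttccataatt
Tfrc site 2, 3′ UTR, chr16:32631598-32631626, plus strand: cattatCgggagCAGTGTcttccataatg
Tfrc site 3, 3′ UTR, chr16:32631663-32631691, plus strand: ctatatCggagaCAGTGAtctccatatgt
Tfrc site 4, 3′ UTR, chr16:32631710-32631738, plus strand: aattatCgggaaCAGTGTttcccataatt
The 4 *Tfrc* sites lay in its last exon, exon 19. With up to 1 failed pair allowed, the pattern was present in 2340 of 21877 protein-coding genes (10.7%), so most matches in the genome need not be elements of this kind.

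The precision of the counts differs between the members because some share sequence with other genes. Of the 50-base words in the transcript of *Ftl1*, 90.6% also occurred in 17 other genes, among them processed pseudogenes and miRNA genes. In *Ftl1-ps1*, which the annotation labels protein-coding, 73.4% occurred. *Ftl1-ps1* received 586 to 2168 counts against at least 38363 for *Ftl1*, but how reads with several positions were treated was not given in the sources used here, and the values of *Ftl1* are uncertain to that extent. Of *Hamp* words 16.6% occurred in *Hamp2*, and of *Hamp2* words 15.5% occurred in *Hamp*. An annotated antisense RNA across both hepcidin genes, *Gm44662*, had 0 counts in every library. *Bmp6* overlaps the opposite-strand gene *Txndc5* by 224 bases, and since the strand setting of the counting was not given, reads in this stretch could not be assigned to either.

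Per gene length as listed in the count table, the storage chains and hepcidin were the most abundant members. The median RPKM (CPM divided by that length in kilobases) over 32 libraries was 1622 for *Fth1*, 1271 for *Hamp* and 1039 for *Ftl1*. It was 117 for *Tfr2* and 62.5 for *Hamp2*, and 16.8 for *Hfe* and 15.7 for *Slc40a1*. The least abundant members were *Id1* (5.82), *Tfrc* (4.43) and *Bmp6* (1.84). *Hamp2* had the widest range of RPKM, from 3.54 to 318 or 89.9-fold, and *Bmp6* the narrowest, from 1.33 to 2.80. The listed lengths differed from the transcripts searched above. They were 866 against 1494 bases for *Fth1*, 1340 against 968 for *Ftl1* and 9000 against 3370 for *Slc40a1*. The order of the members therefore depends on the length used.

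The comparisons asked how loss of *Cyp2c70* and treatment with SC-435 each altered liver expression, within each sex. The most members were called where SC-435 was given to KO mice. In KO females, 5 of 10 members passed the test, 3 higher and 2 lower, where 8.56% of 16332 genes tested were higher, 9.23% lower and 17.8% either. In KO males, 4 of 10 passed, all higher, where 8.80% of 15984 genes tested were higher, 8.36% lower and 17.2% either. The ferritin chains and *Hfe* were called in both sexes, *Hamp* and *Slc40a1* were called lower in females, and *Hamp2* was called higher in males. In each sex the groups did not overlap for the members called and overlapped for the rest. The share of all genes whose groups did not overlap is not given here.

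On chow, no member passed the edgeR test for KO against WT in either sex. In females the count was 0 of 10, where 9.83% of 16205 genes tested were called higher, 5.05% lower and 14.9% either. There 3 members had an unadjusted p under 0.05. DESeq2 called 3 members and 17.9% of all genes it tested, and limma voom with quality weights 2 members and 26.3%. The groups of *Tfr2* and of *Fth1* did not overlap, without a share over all genes to set beside this. In males the count was 0 of 10 by edgeR, where 0.933% of 15862 genes were called higher, 0.151% lower and 1.08% either. There 2 members had an unadjusted p under 0.05. DESeq2 called 0 members and 6.25% of genes, and voom 1 and 15.3%. The male groups of *Ftl1* did not overlap, again without a share over all genes. These 2 comparisons share their KO chow mice with the SC-435 comparisons above, so a KO chow group that is low enters both with opposite sign.

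With SC-435 in WT mice no member passed the edgeR test with all mice kept, which does not show that none changed. The values of *Hfe*, which came near the threshold in WT females, are given below. In females edgeR called 0 members and 4.28% of all genes, and 2 members had an unadjusted p under 0.05. DESeq2 called 1 member and 8.75% of genes, and voom 2 and 7.63%. In males edgeR called 0 members and 0.0394% of all genes, and 2 members had an unadjusted p under 0.05. DESeq2 called 0 members and 0.989% of genes, and voom 5 and 10.5%. Without male WT SC-435 replicate 4 edgeR again called 0 members in males, with 1 at an unadjusted p under 0.05. *Fth1* then went from 0.06 to 0.16 (adjusted p = 0.927), *Ftl1* from -0.29 to -0.16 (adjusted p = 0.949) and *Slc40a1* from -0.19 to -0.12 (adjusted p = 0.959) on the log2 scale. Without male WT chow replicate 1 instead, *Slc40a1* was at -0.49 (SE 0.12, adjusted p = 0.0779). With all mice kept voom called it lower (-0.45, adjusted p = 0.0265). Treated KO females against WT females on chow gave 3 of 10, 1 higher (*Hfe*) and 2 lower (*Hamp* and *Slc40a1*). There 8.73% of genes were higher, 7.30% lower and 16% either. The same comparison in males gave 0 of 10 by edgeR, against 0.208% of genes called. There 2 members had an unadjusted p under 0.05. DESeq2 called 0 members and 2.08% of genes, and voom 5 and 18.6%. Between the sexes, in WT mice on chow, 1 of 10 members was called, *Hamp2*, against 1.49% of genes.

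**Figure D1:**
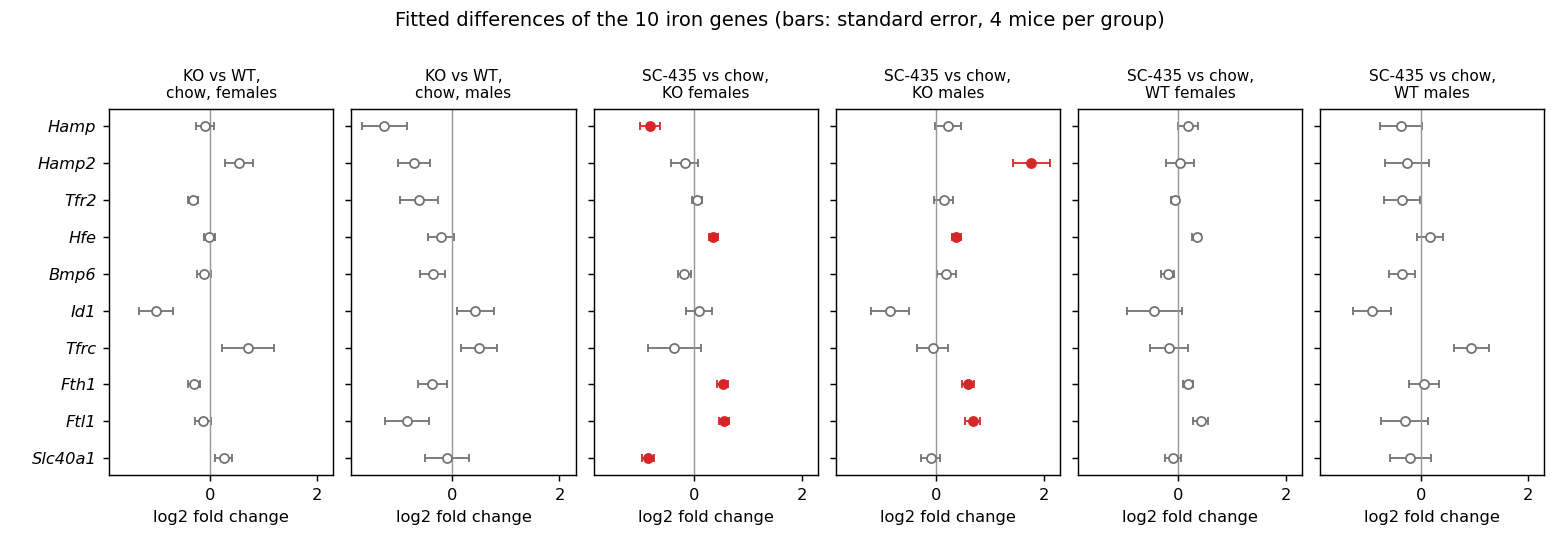
Log2 fold change of each of the 10 genes (horizontal axis, with the standard error as bars) in 6 comparisons, KO against WT on chow, SC-435 against chow in KO and SC-435 against chow in WT, each in females and males. Filled red points passed the test at an adjusted p under 0.05: 5 genes in KO females and 4 in KO males given SC-435, and none in the other 4 comparisons.

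*Hamp*, which encodes hepcidin, was lowest in KO females given SC-435. The 4 WT females on chow had 623, 462, 542 and 713 CPM, and the 4 KO females on chow 527, 583, 686 and 421 CPM. KO females given SC-435 had 350.2, 390.4, 220.3 and 295 CPM, and every one of them lay below every chow-fed female of either genotype. WT females given SC-435 had 515, 761, 532 and 846 CPM and overlapped the females on chow. In KO females *Hamp* fell by 0.82 on the log2 scale with SC-435 (SE 0.19, adjusted p = 0.0171), from 554 ± 111 to 314 ± 73.7 CPM (SD, n = 4). Against WT females on chow, the treated KO females were lower by a log2 fold change of -0.90 (SE 0.18, adjusted p = 0.00738). Neither the KO on chow (-0.09, SE 0.17, adjusted p = 0.771) nor SC-435 in WT females (0.18, SE 0.19, adjusted p = 0.65) passed the test. The lower *Hamp* in treated KO females was called under every alternative setting and with any 1 mouse left out.

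In males *Hamp* was called in no comparison by edgeR on the libraries of the groups compared. Male WT mice on chow had 1613, 423, 612 and 618 CPM, where the value of 1613 belongs to the library that stood apart. Male KO mice on chow had 486, 345, 258 and 242 CPM, so that 3 of 4 lay below all WT males. Male KO mice given SC-435 had 396, 277, 496 and 385 CPM, within the range of KO on chow and above it in 1 mouse. The log2 fold change for KO against WT on chow was -1.26 (SE 0.42, adjusted p = 0.196), and -0.71 (SE 0.25, adjusted p = 0.115) without the library that stood apart. In the fit of all 16 male libraries it was called (-1.28, adjusted p = 0.0313). Treated KO males against WT males on chow were called by voom (-0.51, adjusted p = 0.0495). SC-435 in KO males gave 0.23 (SE 0.24, adjusted p = 0.536). Male WT mice given SC-435 had 571 to 722 CPM. Against WT males on chow without the library that stood apart, this gave 0.20 (SE 0.16, adjusted p = 0.53). Across all 8 groups the order of mean *Hamp* ran from male WT chow (816 ± 539 CPM, SD, n = 4) to female KO SC-435 (314 ± 73.7 CPM), and all neighbours in that order overlapped.

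In WT mice on chow *Hamp2* had the largest sex difference of the 10 members. WT females on chow had 128, 53.2, 104 and 114 CPM and WT males on chow 7.99, 8.29, 7.58 and 3.86 CPM. Females were higher by a log2 fold change of 3.84 (SE 0.36, adjusted p = 0.000884), or 14.3-fold, and by 3.92 (SE 0.36, adjusted p = 0.000277) without the male library that stood apart. Of the total of *Hamp* and *Hamp2* counts, not corrected for length, *Hamp2* made up 10.3% to 42.2% in the 16 females and 0.312% to 4.67% in the 16 males. The 2 sexes did not overlap in this share, nor in the level of *Hamp2*: the lowest female group by mean, WT on chow (99.6 ± 32.5 CPM, SD, n = 4), lay wholly above the highest male group, KO given SC-435 (14.1 ± 6.36 CPM).

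Among males *Hamp2* rose with SC-435 in KO mice. KO males on chow had 4.54, 3.06, 5.36 and 3.59 CPM and KO males given SC-435 had 11.2, 6.45, 19.8 and 18.8 CPM, without overlap. The log2 fold change was 1.77 (SE 0.34, adjusted p = 0.0117), and it was called under every alternative setting and with any 1 mouse left out. WT males given SC-435 had 8.59, 6.87, 5.70 and 2.06 CPM and spanned the WT males on chow (log2 fold change -0.25, SE 0.42, adjusted p = 0.896). That value was -0.18 (adjusted p = 0.858) without the male WT chow library that stood apart and 0.04 (adjusted p = 0.98) without male WT SC-435 replicate 4. KO females had 172, 118, 109 and 186 CPM on chow and 114, 166, 161 and 76.5 CPM with SC-435, which overlapped (log2 fold change -0.17, SE 0.25, adjusted p = 0.678). Over the 32 libraries, which share their groups, the Pearson correlation of *Hamp* with *Hamp2* on the log2 scale was 0.05 and the Spearman correlation 0.08, and 0.15 and 0.12 over 31 libraries without the one that stood apart.

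**Figure D2:**
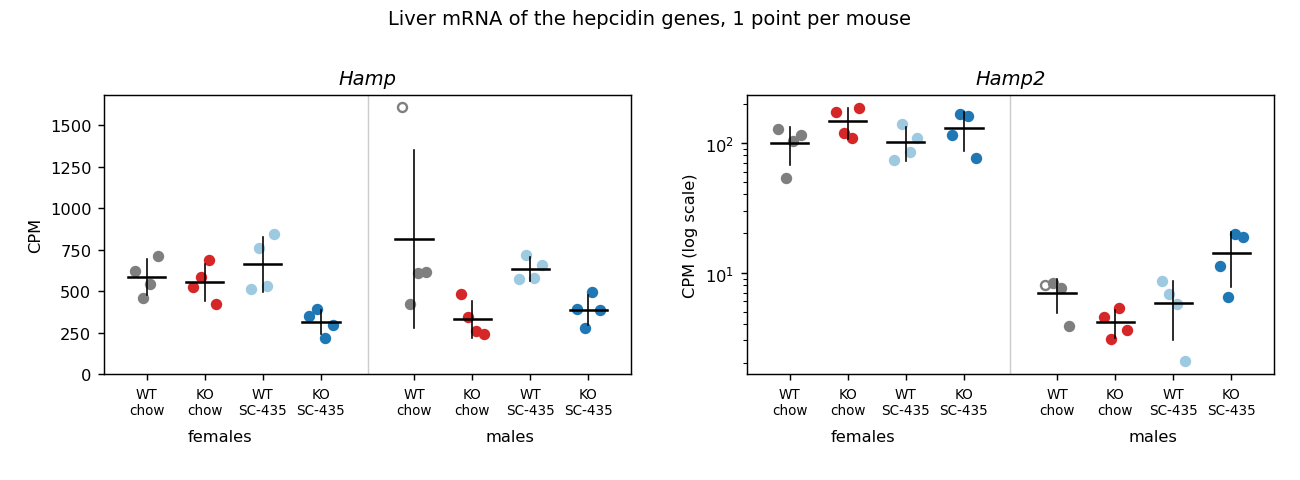
Expression of *Hamp* (linear axis, CPM) and *Hamp2* (log axis, CPM) in each of the 32 mice by group, with points for mice, black bars for group means and vertical lines for ± SD; the open circle is male WT chow replicate 1. *Hamp* is lowest in the 4 KO females given SC-435 (220.3 to 390.4 CPM as a group), and *Hamp2* lies between 53.2 and 186 CPM in all females and between 2.06 and 19.8 CPM in all males.

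*Hfe*, whose protein binds transferrin receptor 1 and signals to hepcidin, was called higher with SC-435 in KO mice of both sexes. KO females had 48.4, 51.4, 48.8 and 56.0 CPM on chow and 64.4, 67.8, 70.8 and 58.2 CPM with SC-435 (log2 fold change 0.36, SE 0.08, adjusted p = 0.0188). KO males had 51.7, 53.6, 45.4 and 54.4 CPM on chow and 63.9, 61.8, 72.1 and 67.3 CPM with SC-435 (0.37, SE 0.08, adjusted p = 0.0194). In both sexes the treated mice lay wholly above those on chow. WT females had 56.3, 53.1, 50.02 and 44.3 CPM on chow and 62.0, 69.6, 62.7 and 64.5 CPM with SC-435, also without overlap, but the difference missed the threshold by edgeR (0.34, SE 0.08, adjusted p = 0.0528), and DESeq2 gave an adjusted p of 0.0101. WT males given SC-435 had 67.3, 70.0, 70.9 and 65.9 CPM, and those on chow had 95.2 CPM in the library that stood apart and 50.4, 49.0 and 48.4 CPM in the others. The log2 fold change in WT males was 0.17 (SE 0.24, adjusted p = 0.88), and 0.48 (SE 0.07, adjusted p = 0.011) without that library. The *Hfe* call in KO mice was lost when libraries were scaled to total counts alone, with an adjusted p of 0.0698 in females and 0.227 in males, and in males in a fit of all 16 male libraries (0.246). It was also lost in each sex on leaving out any of 3 mice: KO chow replicate 2 and KO SC-435 replicates 2 and 3 among females (adjusted p from 0.0522 to 0.0631), and KO chow replicate 3 and KO SC-435 replicates 3 and 4 among males (0.0504 to 0.0614). *Hfe* was also called higher in treated KO females against WT females on chow. That call was lost on leaving out any of several mice (adjusted p from 0.0546 to 0.0808 by edgeR).

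*Tfr2*, the hepatocyte transferrin sensor, was called in no comparison by edgeR on the libraries of the groups compared. WT females on chow had 559, 550, 585 and 520 CPM and KO females on chow 461, 403, 465 and 471 CPM, which did not overlap. KO against WT gave -0.31 (SE 0.10, adjusted p = 0.0604), while DESeq2 gave an adjusted p of 0.00956, voom 0.014 and edgeR on all 16 female libraries 0.01003. Treated KO females, at 441 to 503 CPM, were also below WT females on chow in every mouse (-0.25, SE 0.08, adjusted p = 0.0602). In males the 3 other WT chow mice had 501 to 553 CPM and the one that stood apart 1294 CPM, and KO males on chow ranged from 296 to 560 CPM (log2 fold change -0.61, SE 0.35, adjusted p = 0.44, and -0.18 without that library).

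*Bmp6*, the ligand, was called in no comparison by edgeR with all mice kept. Its group means ran from 9.16 ± 1.75 CPM in male WT chow to 6.64 ± 0.661 CPM in female KO SC-435 (SD, n = 4), and all neighbours overlapped. Treated KO females against WT females on chow were called by voom (-0.36, adjusted p = 0.0342) and by edgeR without female WT chow replicate 1 (-0.37, adjusted p = 0.0431). The partner whose reads it overlaps, *Txndc5*, stood at 121 to 501 CPM and fell by 0.77 with SC-435 in WT females (adjusted p = 0.00314), where *Bmp6* had a log2 fold change of -0.19 (SE 0.12, adjusted p = 0.408). Markers of sinusoidal endothelium, the cells that make BMP6, summed to 305 to 408 CPM in KO females on chow and 309.5 to 380.2 CPM with SC-435, with 0 of 7 called. In KO males they summed to 220.3 to 289 CPM on chow and 313 to 344 CPM with SC-435, with 3 of 7 called higher, and *Bmp6* had a log2 fold change of 0.19 (SE 0.18, adjusted p = 0.487). Their part in the *Bmp6* values was not tested.

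*Id1*, the SMAD target, was lower in KO than in WT females on chow without passing the test. WT females on chow had 9.88, 8.70, 11.9 and 22.7 CPM and KO females on chow 8.92, 5.21, 7.83 and 4.81 CPM, and only the lowest WT mouse fell within the KO range. KO against WT gave -0.999 (SE 0.31, adjusted p = 0.058), DESeq2 gave an adjusted p of 0.00924 and voom 0.0429, and edgeR called it without female WT chow replicate 2 (-1.16, adjusted p = 0.0496). *Hamp* itself had a log2 fold change of -0.09 in the same mice. In males KO against WT was 0.44 (SE 0.35, adjusted p = 0.574), and 0.67 (adjusted p = 0.217) without the library that stood apart. SC-435 in KO males gave -0.86 (SE 0.35, adjusted p = 0.111). It was called by voom (-0.94, adjusted p = 0.0207) and by edgeR without male KO SC-435 replicate 3 (-1.32, adjusted p = 0.0188). WT females given SC-435 were the most spread, at 4.32, 3.41, 14.2 and 17.1 CPM.

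*Tfrc*, which takes up transferrin-bound iron, varied more within groups than between them. KO females on chow had 45.8, 67.5, 8.37 and 52.3 CPM and WT females on chow 20.1, 40.3, 22.4 and 23.5 CPM. KO against WT females gave 0.71 (SE 0.48, adjusted p = 0.357), and it was 1.07 (adjusted p = 0.0249) without KO chow replicate 3, the mouse with 8.37 CPM. In WT males SC-435 gave 60.7, 42.6, 35.3 and 29.0 CPM against 11.9, 21.0, 23.5 and 30.9 CPM on chow (0.94, SE 0.32, adjusted p = 0.651, and 0.74 with an adjusted p of 0.153 without the library that stood apart). In KO mice SC-435 gave -0.37 (SE 0.49) in females and -0.06 (SE 0.29) in males, with neither passing the test.

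**Figure D3:**
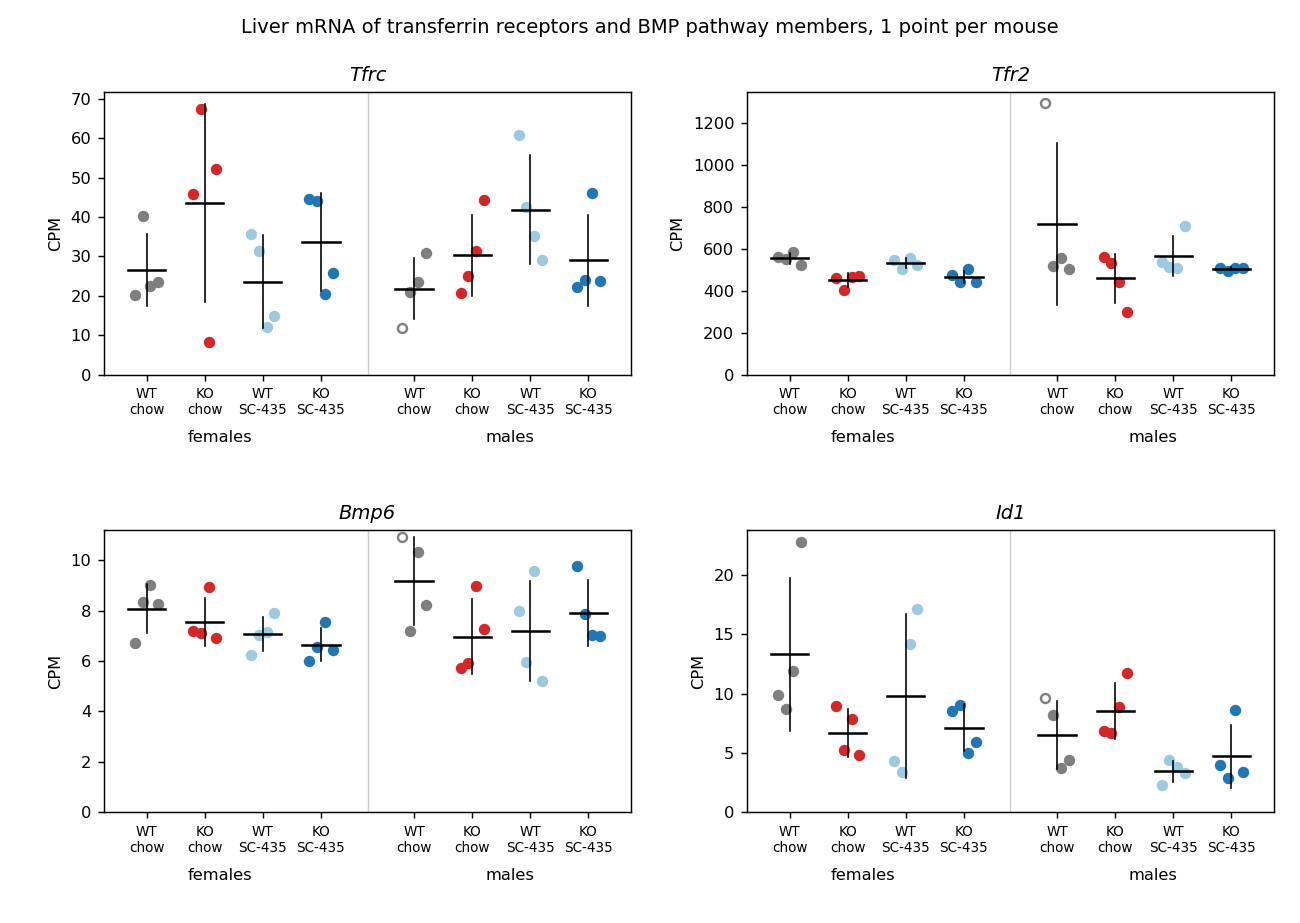
Expression in CPM of *Tfrc*, *Tfr2*, *Bmp6* and *Id1* in each of the 32 mice by group, with points for mice, black bars for group means and vertical lines for ± SD; the open circle is male WT chow replicate 1. Groups that follow each other in the order of their means overlap in all 4 genes; *Tfrc* in KO females on chow spans 8.37 to 67.5 CPM, and *Tfr2* in the male library that stood apart is at 1294 CPM.

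Both ferritin chains rose with SC-435 in KO mice. For the heavy chain *Fth1*, KO females had 1043, 1109, 1055 and 1192 CPM on chow and 1616, 1763, 1544 and 1427 CPM with SC-435 (log2 fold change 0.53, SE 0.10, adjusted p = 0.00813). KO males had 1107, 1162, 1116 and 1188 CPM on chow and 1745, 1465, 1879 and 1804 CPM with SC-435 (0.60, SE 0.11, adjusted p = 0.0108). The treated mice of each sex lay wholly above those on chow. For the light chain *Ftl1*, KO females had 1039, 1080.1, 1093 and 1005 CPM on chow and 1525, 1634, 1603 and 1402 CPM with SC-435 (0.55, SE 0.09, adjusted p = 0.0053). KO males had 1204, 1111, 1158 and 1053 CPM on chow and 1692, 1500.2, 2179 and 1833 CPM with SC-435 (0.67, SE 0.13, adjusted p = 0.0126). The related gene *Ftl1-ps1* gave a log2 fold change of 0.68 (adjusted p = 0.0234) in KO males and 0.38 (adjusted p = 0.0799) in KO females. Which of the 2 genes its reads came from could not be settled. In females both chains were called under every alternative and with any 1 mouse left out. In males both lost the call in a fit of all 16 male libraries (adjusted p = 0.104 for *Fth1* and 0.252 for *Ftl1*). The 8 erythroid markers summed to 76.3 to 123 CPM in KO males on chow and 153 to 161 CPM with SC-435, with 2 of 5 tested called higher, and to 23.1 to 84.5 CPM and 23.8 to 59.2 CPM in KO females, with 0 called. The 6 hepatocyte markers summed to 51435 to 74520 CPM in KO females on chow and 80184 to 93509 CPM with SC-435, without overlap, and to 50159.7 to 76988 CPM and 60941 to 85048 CPM in KO males, with 0 of 6 called in either sex. The part of either cell type in the ferritin values was not tested.

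The lowest group means of *Fth1* were those of the chow-fed KO mice. Mean *Fth1* was 1100 ± 67.7 CPM in female KO chow and 1336 ± 137 CPM in female WT chow (SD, n = 4). It was 1144 ± 38.2 CPM in male KO chow and 1509 ± 601 CPM in male WT chow, with the library that stood apart included. WT females on chow had 1539, 1241, 1289 and 1276 CPM, and KO against WT females on chow gave -0.29 (SE 0.11, adjusted p = 0.104) by edgeR and an adjusted p of 0.0463 by DESeq2. For *Ftl1* the KO and WT females on chow overlapped, and the lowest mouse of all was a WT female (911 CPM). SC-435 in WT females, at 1515, 1702, 1383 and 1457 CPM, gave a log2 fold change of 0.18 (SE 0.10, adjusted p = 0.359) for *Fth1* and 0.41 (SE 0.14, adjusted p = 0.139) for *Ftl1*. In treated KO females against WT females on chow, *Ftl1* was not called in the reported fit. DESeq2 (0.42, adjusted p = 0.0204) and voom (0.52, adjusted p = 0.00501) called it higher there. Male WT chow replicate 1 had 2405 CPM of *Fth1* and 4402 CPM of *Ftl1*, against 1129 to 1280.3 CPM and 1287 to 1347 CPM in the other 3. Without it, KO against WT males on chow gave -0.065 (SE 0.11, adjusted p = 0.725) for *Fth1*, and KO males, at 1107 to 1188 CPM, overlapped the other WT males. SC-435 in WT males, also without it, gave 0.38 (adjusted p = 0.179) for *Fth1* and 0.38 (adjusted p = 0.249) for *Ftl1*.

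*Slc40a1*, which encodes the iron exporter ferroportin, fell with SC-435 in KO females. They had 161, 206, 220.3 and 167 CPM on chow and 95.1, 98.0, 108 and 114 CPM with SC-435, without overlap. This was a log2 fold change of -0.85 (SE 0.12, adjusted p = 0.00258), called under every alternative and with any 1 mouse left out. Treated KO females were also below WT females on chow, who had 114, 154, 170.0 and 185 CPM (-0.59, SE 0.13, adjusted p = 0.0143), though 1 WT mouse overlapped them and the call was lost without KO SC-435 replicate 2 (adjusted p = 0.0534). KO males had 112, 111, 140.5 and 195 CPM on chow and 142, 131, 116 and 132 CPM with SC-435, which overlapped (-0.10, SE 0.17, adjusted p = 0.711). WT females given SC-435, at 120 to 161 CPM, overlapped WT females on chow. In WT males SC-435 gave -0.49 (SE 0.12, adjusted p = 0.0779) without the library that stood apart. There voom with all mice kept called *Slc40a1* lower (-0.45, adjusted p = 0.0265). In the order of group means, female KO SC-435 (104 ± 8.95 CPM, SD, n = 4) came last and did not overlap its neighbour, male KO SC-435 (130.1 ± 10.8 CPM).

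Ferroportin is made by liver macrophages as well as hepatocytes, and markers of these cells moved in the same mice. The 6 Kupffer cell markers summed to 362 to 521 CPM in KO females on chow and 205 to 333 CPM in KO females given SC-435, against 272 to 318 CPM in WT females on chow. With SC-435 in KO females 5 of the 6 were called lower and none higher, and in KO against WT females on chow 4 of 6 were called higher. The 6 markers of recruited macrophages summed to 150.1 to 377 CPM in KO females on chow, 101 to 145 CPM with SC-435 and 41.5 to 69.0 CPM in WT females on chow, with 6 of 6 called lower with SC-435. In KO males the Kupffer markers summed to 203 to 671 CPM on chow and 190 to 305 CPM with SC-435, with 0 of 6 called, while 6 of 6 recruited macrophage markers were called lower. None of these markers was at 0 throughout a group. Their part in the *Slc40a1* values, and in those of ferritin, was not tested.

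**Figure D4:**
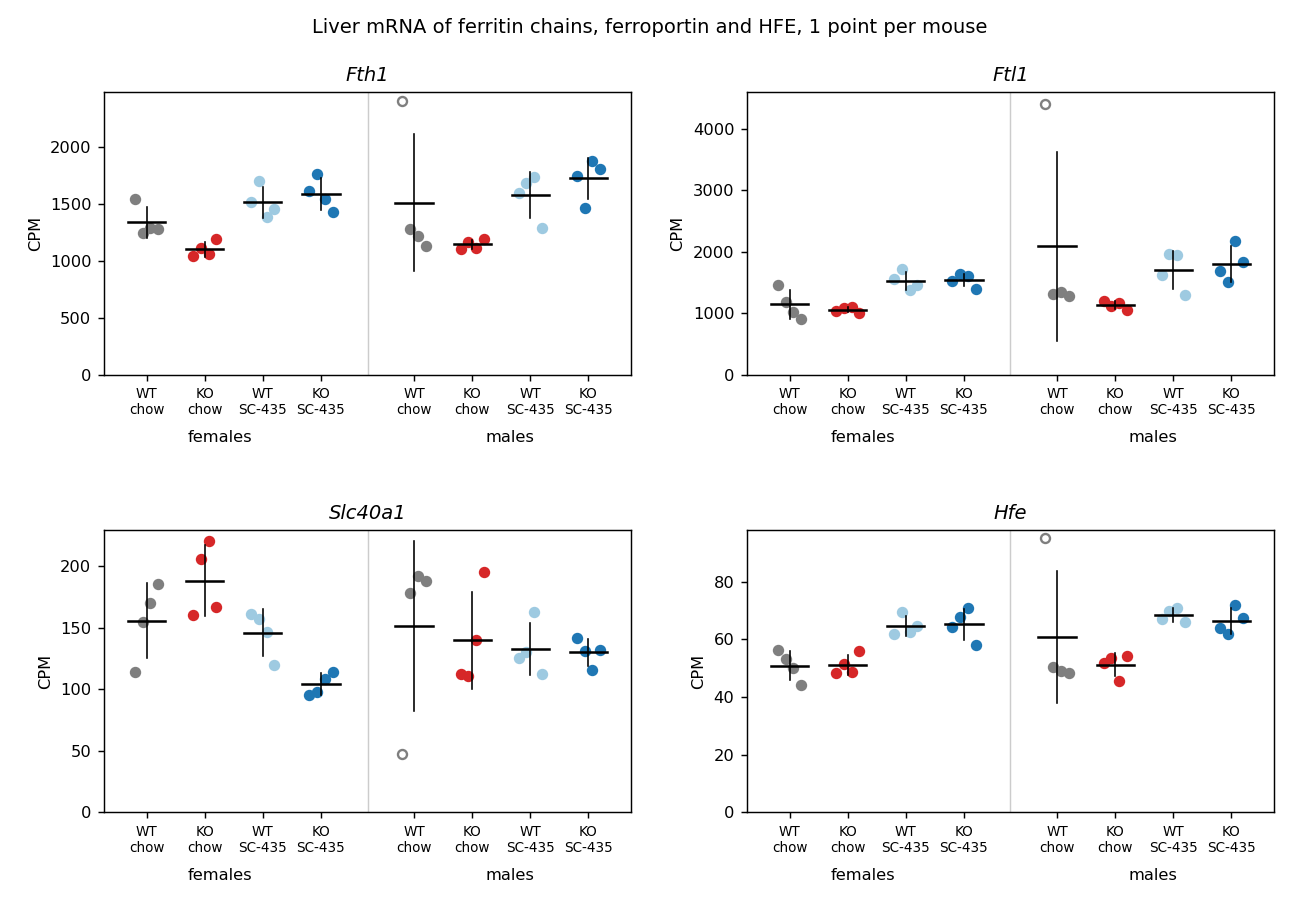
Expression in CPM of *Fth1*, *Ftl1*, *Slc40a1* and *Hfe* in each of the 32 mice by group, with points for mice, black bars for group means and vertical lines for ± SD; the open circle is male WT chow replicate 1. In KO mice of both sexes the points for SC-435 lie above those for chow in *Fth1*, *Ftl1* and *Hfe*, and in KO females they lie below them in *Slc40a1* (95.1 to 114 against 161 to 220.3 CPM).

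Whether these effects differed between genotypes or sexes was tested directly, and no member passed in any of 4 interaction tests by edgeR. For genotype by SC-435 in females edgeR called 0 members and 2.64% of genes, and 3 members had an unadjusted p under 0.05. The share of all genes at an unadjusted p under 0.05 is not given here for any comparison. DESeq2 and voom each called 2 members, against 7.15% and 11.1% of genes. *Slc40a1* came nearest (difference of log2 fold changes -0.76, SE 0.20, adjusted p = 0.0528), followed by *Hamp* (-0.997, SE 0.29, adjusted p = 0.0737), the 2 that DESeq2 called (adjusted p = 0.0113 and 0.0176). For genotype by SC-435 in males edgeR called 0 members and 0.0906% of genes, and 2 members had an unadjusted p under 0.05. DESeq2 called 1 member and 1.72% of genes, and voom 0 and 2.83%. The member called was *Hamp2* (2.01, SE 0.57, adjusted p = 0.167 by edgeR and 0.0322 by DESeq2), and edgeR gave 1.92 (adjusted p = 0.114) without the library that stood apart and 1.73 (adjusted p = 0.271) without male WT SC-435 replicate 4.

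For sex by SC-435 in KO mice edgeR called 0 members and 0.211% of genes, and 3 members had an unadjusted p under 0.05. DESeq2 called 2 members and 1.89% of genes, and voom 1 and 1.77%. Female minus male, the difference of log2 fold changes was -1.96 for *Hamp2* (SE 0.46, adjusted p = 0.0994), -0.78 for *Slc40a1* (SE 0.21, adjusted p = 0.148) and -1.06 for *Hamp* (SE 0.34, adjusted p = 0.201). *Slc40a1* was called without male KO chow replicate 4 (-0.96, adjusted p = 0.027), the mouse with 195 CPM. For sex by genotype on chow edgeR called 0 members and 0.0235% of genes, and 3 members had an unadjusted p under 0.05. DESeq2 called 0 members and 0.404% of genes, and voom 1 and 3.25%. For *Hamp* this difference was 1.22 (SE 0.49, adjusted p = 0.687), and 0.65 (adjusted p = 0.422) without the library that stood apart.

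Without male WT chow replicate 1, the male comparisons had more calls among all genes. KO against WT on chow then called 7.30% of genes and 0 of 10 members. SC-435 in WT males called 2.53% of genes and 1 member, *Hfe* as given above. Treated KO males against WT males on chow called 12.2% of genes and 4 members. These were *Hfe* (log2 fold change 0.43, SE 0.07, adjusted p = 0.00614), *Fth1* (0.51, SE 0.10, adjusted p = 0.0119), *Ftl1* (0.46, SE 0.12, adjusted p = 0.0337) and, lower, *Slc40a1* (-0.51, SE 0.08, adjusted p = 0.00541). Females against males then called 9.53% of genes and again 1 member, *Hamp2*.

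Other genes of the pathway were taken from lists. The list of IL-6-STAT3 signalling and the acute phase had 14 tested genes in KO against WT females on chow. Their median log2 fold change was 0.15 against -0.02 over all genes. Of these 14, 4 were higher and 0 lower, where 14.9% of all genes were called. They included the serum amyloid genes *Saa2* (2.48, adjusted p = 0.00384) and *Saa1* (1.94, adjusted p = 0.0087) and the siderophore-binding protein *Lcn2* (2.93, adjusted p = 0.00707). In males, where 1.08% of all genes were called, 3 were higher and 0 lower: *Saa1* (2.26, adjusted p = 0.0412), *Saa2* (3.14, adjusted p = 0.0412) and *Lcn2* (3.77, adjusted p = 0.046). Without the library that stood apart 7.30% of all genes were called. Of the list 4 were then higher, with *Saa1* at 2.53 (adjusted p = 0.0163), *Saa2* at 3.65 (adjusted p = 0.0131) and *Lcn2* at 4.65 (adjusted p = 0.00747). With SC-435 in KO females, where 17.8% of all genes were called, 1 was higher and 7 lower (median -0.38 against -0.02). Among the lower were *Socs3* (-1.41, adjusted p = 0.00421), the STAT3-induced inhibitor of cytokine signalling, and *Lcn2* (-2.69, adjusted p = 0.00675). With SC-435 in KO males, where 17.2% of all genes were called, 0 were higher and 4 lower (median -0.46 against -0.03), with *Lcn2* at -2.82 (adjusted p = 0.00368). *Hamp*, a target of the same pathway, had log2 fold changes of -0.82 and 0.23 in these 2 comparisons. In KO against WT on chow, where the serum amyloid genes and *Lcn2* were higher, its log2 fold changes, given above, were negative in both sexes. Neither was called in the reported fit.

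The BMP-SMAD list had 23 tested genes, and its median log2 fold change lay between -0.06 and 0.08 in the 6 comparisons given here. KO against WT females on chow had 0 higher and 2 lower, where 14.9% of all genes were called, the endothelial ligand *Bmp2* (-0.52, adjusted p = 0.0212) and *Fgl1* (-0.54, adjusted p = 0.0233), a secreted protein of hepatocytes that lowers hepcidin. SC-435 in KO females had 1 higher and 0 lower, against 17.8% of all genes, *Hfe2* (0.42, adjusted p = 0.0101), the gene of the BMP co-receptor hemojuvelin. SC-435 in KO males had 2 higher and 2 lower, against 17.2% of all genes, including *Bmp2* (0.78, adjusted p = 0.0061), *Fgl1* (-0.73, adjusted p = 0.0126) and the pseudoreceptor *Bambi* (-0.89, adjusted p = 0.0128). Treated KO females against WT females on chow had 1 higher and 3 lower, against 16% of all genes, with *Hfe2* at 0.45 (adjusted p = 0.00479) and the inhibitory SMAD gene *Smad7* at -0.74 (adjusted p = 0.00939). KO against WT males on chow had 0 called by edgeR, against 1.08% of all genes. Without the library that stood apart this comparison had 1 higher, *Fgl1* (1.17, adjusted p = 0.0144), and 2 lower, against 7.30% of all genes. *Fgl1* was higher in females than in males of the WT chow groups (2.18, adjusted p = 0.0135, and 1.94 without that library, adjusted p = 7.86e-05).

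The list of other genes of iron transport and storage had 21 tested members in KO against WT females on chow. There 14.9% of all genes were called, and of the list 2 were higher and 0 lower. These were the ferrireductases *Steap3* (0.81, adjusted p = 0.0028) and *Steap2* (1.14, adjusted p = 0.00433). With SC-435 in KO females, where 17.8% of all genes were called, 1 of 20 was higher and 4 lower. The lower ones included *Steap2* at -0.93 (adjusted p = 0.00444), *Steap3* at -0.62 (adjusted p = 0.00876) and the ferroxidase gene *Cp* at -0.77 (adjusted p = 0.0119). With SC-435 in KO males, where 17.2% of all genes were called, 4 were higher and 4 lower. The higher ones included the genes of both iron regulatory proteins, *Ireb2* (0.56, adjusted p = 0.00594) and *Aco1* (0.46, adjusted p = 0.00794), whose binding sites are printed above, and *Cp* was lower (-0.70, adjusted p = 0.0101). The median log2 fold change of this list was -0.00167 in KO against WT females, -0.02 with SC-435 in KO females and -0.02 with SC-435 in KO males.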

How the data were processed

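Liver RNA was sequenced in 32 libraries, 1 per mouse. The authors deposited whole-number read counts per gene for every library in 1 table, beside FPKM values and columns of their own group comparisons (fold changes and p-values), which were not used. The submitters' processing notes list HISAT2 2.0.5, featureCounts 1.5.0-p3, DESeq2 1.20.0, GATK 4.1.1.0 and build mm10. The annotation release, the strand setting and the treatment of multiply mapped reads were not given in the sources used here. The labels place the start of the SC-435 diet 3 weeks after weaning, whereas the study's own scheme starts it at weaning. Livers were perfused with saline before freezing, per the study's methods.

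Groups came from the sample titles, and all per-sample columns were assigned (0 left out). Counts were tested with edgeR 4.0.16 in R 4.3.3 (filterByExpr, TMM, quasi-likelihood test, Benjamini-Hochberg adjustment over all genes tested), each comparison on the 8 libraries of its groups and each interaction on 16. Genes were called at an adjusted p under 0.05, standard errors were the log2 fold change over the square root of F, and scripts were tested on simulated data. Alternatives were DESeq2 1.42.0, limma 3.58.1 voom with quality weights, median-of-ratios factors, total counts only, no filter on low counts, the replicate number as a block, all 16 libraries of a sex in 1 fit, and leaving out each library. CPM used TMM factors over all 32 libraries, and RPKM also the gene length in the table. No within-group pair of libraries agreed within sampling noise (lowest chi-square per gene 20.3 over 48 pairs). In no comparison did all 4 same-numbered pairs correlate above 0.1 in their deviations from group means (all 4 were positive in KO against WT males, lowest 0.0661, and in females against males, lowest 0.0465), so the numbers were not taken to pair mice.

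The 10 members were all described, and of each of 4 lists (BMP-SMAD control, IL-6-STAT3 and acute phase, iron transport and storage, heme handling) up to 3 genes with the smallest p per comparison were named. Members and lists were chosen with earlier results of these data known. Promoters came from RefSeq (GRCm38.p6) and transcripts from GENCODE on GRCm38. Id1 and Slc40a1 had no promoter window.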

Additional observations from a re-analysis of the deposited data

Results flagged for a closer look

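In 13 of 80 combinations of a member and a group, the highest or lowest of 4 mice stood further from the others than Dixon's 95% limit allows (the gap to the nearest mouse over the range of the group). Chance alone gives about 1 in 20 such groups.

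Of the 13, 6 belonged to male WT chow replicate 1, the library that stood apart. It was the highest of its group for *Hamp* (1613 CPM), *Tfr2* (1294 CPM), *Hfe* (95.2 CPM), *Fth1* (2405 CPM) and *Ftl1* (4402 CPM), and the lowest for *Slc40a1* (47.8 CPM). In the same group *Hamp2* was lowest in replicate 4 (3.86 CPM).

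The other 6 were spread over 4 groups. *Tfr2* was highest in male WT SC-435 replicate 4 (708 CPM) and lowest in female KO chow replicate 2 (403 CPM). *Bmp6* was highest in female KO chow replicate 3 (8.96 CPM), the mouse with the lowest *Tfrc* of its group. *Tfrc* was highest in male KO SC-435 replicate 3 (46.2 CPM) and in female WT chow replicate 2 (40.3 CPM). *Fth1* was highest in female WT chow replicate 1 (1539 CPM).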

How the results depend on the processing

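With 4 mice a group and adjustment over all genes tested, *Bmp6*, *Id1* and *Tfrc* were called in no comparison of the reported fits. Their uncalled differences do not show that none existed. The SD within a group reached 70.8% of the mean for *Id1* (female WT SC-435) and 57.8% for *Tfrc* (female KO chow). Of 700 recomputed values, for members called under at least 1 setting, 594 kept their direction and their side of the threshold, 91 changed side and 15 changed direction. In KO females given SC-435 the count of 5 members was within 1.5 times under every alternative. In KO males given SC-435 it went from 4 to 1 in the fit of all 16 male libraries.

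Other tools and filters raised several counts. In the comparisons whose DESeq2 and voom shares are given above, both tools also called more of all genes than edgeR. The shares of all genes are not given for treated KO females against WT females on chow or for females against males under these tools. They are not given under most other settings either, so those member counts cannot be set against all genes. KO against WT females went from 0 to 3 with DESeq2, 1 without the filter, 2 with voom, 2 in the 16-library fit and 0 to 1 with 1 library left out. KO against WT males went from 0 to 1 with voom and 1 in the 16-library fit. SC-435 in WT females went from 0 to 1 with DESeq2, 1 with total counts, 2 with voom, 1 in the 16-library fit and 0 to 2 with 1 library left out (2 without female WT chow replicate 1). SC-435 in WT males went from 0 to 5 with voom and 0 to 1 with 1 library left out. Treated KO females against WT females on chow went from 3 to 6 with DESeq2, 5 without the filter, 7 with voom, 5 in the 16-library fit and 1 to 7 with 1 library left out, with 7 without female WT chow replicate 1 and 1 without female KO SC-435 replicate 2. Treated KO males against WT males on chow went from 0 to 5 with voom and 0 to 4 with 1 library left out. Females against males went from 1 to 2 with voom.

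Of the interactions, genotype by SC-435 in females went from 0 to 2 with DESeq2, 2 with total counts, 1 without the filter, 2 with voom and 0 to 2 with 1 library left out, and in males from 0 to 1 with DESeq2. Sex by genotype went from 0 to 1 with voom, and sex by SC-435 in KO from 0 to 2 with DESeq2, 1 with voom and 0 to 1 with 1 library left out.

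With the replicate number as a block, SC-435 in KO males gave 2 calls in place of 4, with *Hfe* (adjusted p = 0.0666) and *Fth1* (0.0567) lost, and SC-435 in KO females 4 in place of 5, with *Hfe* lost (0.0575). The other counts were unchanged under the block. Same-numbered mice correlated between -0.223 and 0.431 in their deviations from group means.

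Among these, values that changed direction were all uncalled in the reported fit and involved male WT chow. *Slc40a1* in KO against WT males (-0.09) was 0.125 with total counts, 0.0585 with the block and -0.39 to 0.0391 with 1 library left out. *Fth1* with SC-435 in WT males (0.06) was -0.0326 to 0.38 with 1 library left out. *Ftl1* with SC-435 in WT males (-0.29) was 0.44 with voom and -0.46 to 0.38 with 1 library left out. *Ftl1* in treated KO males against WT males on chow (-0.19) was 0.0614 with total counts, 0.38 with voom, 0.036 with the block and -0.37 to 0.46 with 1 library left out. The cause was not tested.

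Scaling to total counts moved the median of all genes by over 0.1, to 0.17 in KO against WT females, 0.29 in males, and -0.18 and -0.23 with SC-435 in KO females and males. Among all genes, SC-435 in KO females then called 826 higher and 3202 lower in place of 1398 and 1508, and in KO males 755 and 2320 in place of 1407 and 1337. KO against WT females called 2727 higher and 275 lower in place of 1593 and 818. Counts over all genes differed by over 1.5 times in KO against WT males (172, against 1123 by DESeq2, 2433 by voom, 1399 in the 16-library fit and 17 with the block) and with SC-435 in WT males (6, against 180 by DESeq2 and 1593 by voom).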

Other observations

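In KO against WT females on chow, 18 genes of heme synthesis and breakdown had a median log2 fold change of -0.14. Over all genes it was -0.02. Of the 18, 2 were called higher and 6 lower, where 14.9% of all genes were called. They included *Cpox*, an enzyme of heme synthesis (-0.98, adjusted p = 0.00236), *Blvrb*, a biliverdin reductase (-0.62, adjusted p = 0.00836), and the transporter gene *Flvcr2* (1.08, adjusted p = 0.00308). SC-435 in KO females gave 3 higher and 2 lower, against 17.8% of all genes, with *Flvcr2* at -0.91 (adjusted p = 0.00496), *Alad* at 0.66 (adjusted p = 0.0125) and *Cpox* at 0.34 (adjusted p = 0.0167). SC-435 in KO males gave 4 higher and 1 lower, against 17.2% of all genes, with *Blvrb* at 0.52 (adjusted p = 0.00444), *Cpox* at 0.51 (adjusted p = 0.0256) and *Alad* at 0.47 (adjusted p = 0.0158). The comparisons share their KO chow mice. Treated KO females against WT females on chow had 0 higher and 3 lower, where 8.73% of all genes were higher, 7.30% lower and 16% either. The lower ones included *Alas1*, the rate-limiting enzyme of heme synthesis in liver, at -2.005 (adjusted p = 0.00408). The genotype by SC-435 interaction in females called 2.64% of all genes. Among them were *Alad* (0.97, adjusted p = 0.0188) and *Flvcr2* (-1.05, adjusted p = 0.0198) of this list, and *Steap3* (-0.80, adjusted p = 0.0188) of the iron transport list.

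Over the 32 libraries, the genes most like *Hamp2* on the log2 scale, of 11734 compared, were the cytochrome P450 genes *Cyp2b9* (Pearson r = 0.97) and *Cyp2a4* (0.96) and *Acot3* (0.94). Those most like *Hamp* were *Elmo3* (0.77), *Igfbp4* (0.75) and *Ctsf* (0.74). Those most like *Tfrc* were *Kpnb1* (0.72), *Eif4e* (0.65) and *Slc39a10* (0.60), and those most like *Id1* were *Smad7* (0.85), *Hes1* (0.79) and *Foxf1* (0.73). The points share groups and, in male WT chow, a library that stood apart.

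Among the members, *Fth1* and *Ftl1* correlated at r = 0.90 (Spearman 0.89) over 32 libraries, *Hfe* and *Fth1* at 0.90 (0.87), and *Hfe* and *Slc40a1* at -0.71 (-0.59). Without male WT chow replicate 1 these were 0.90 (0.89), 0.87 (0.86) and -0.56 (-0.55) over 31 libraries. These are descriptions of libraries that share groups and scaling.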
